A study of Mus musculus with 15 samples.

Results

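NF-kB subunits and their inhibitors were examined in Ba/F3-beta cells, a mouse blood cell line that grows in interleukin-3 (IL-3), over 5 conditions. The group holds 10 genes chosen by name for what their proteins do, out of 15964 genes that the annotation names with a probe set of their own: the subunits Nfkb1, Nfkb2, Rel, Rela and Relb, the IkB inhibitors Nfkbia, Nfkbib and Nfkbie, the nuclear IkB protein Bcl3, and Tnfaip3, an inhibitor that acts further upstream. Annotated to 9 of them were 16 probe sets, 12 on the U74A array, 2 on U74B and 2 on U74C, and 0 were annotated to Nfkb1, which is not analysed here. The 10 genes were chosen with earlier results of these data known. Expression of the IkB genes Nfkbia, Nfkbib and Nfkbie and of Rela was high enough to be read, while Nfkb2, Rel, Relb, Bcl3 and Tnfaip3 stayed dim in every condition. Of the 6 probe sets bright enough to read, 0 were called at 2-fold in any comparison, although quantile scaling calls Nfkbia on the U74C array lower at 30 min of IL-3. The nearest were Nfkbib, at least 1.90-fold higher after 2 h of IL-3, and Nfkbia, 1.84-fold lower after 30 min on the U74C array. Nfkbib was just too dim to be read without IL-3, so its ratio to unstimulated cells could only lie above 0.

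Cells transfected with a control (scramble) siRNA were left without IL-3 or given IL-3 for 30 min or 2 h, and cells transfected with siRNAs against Stat5a and Stat5b were given IL-3 for 30 min or 2 h. All 5 conditions are thus siRNA-transfected cells of 1 line, and Stat5 siRNA cells without IL-3 are not analysed here. RNA of each condition was read on 3 Affymetrix array designs (U74A, U74B and U74C), 1 array per condition and design, so no difference has a replicate check and no p-value is given. The study asked which IL-3-induced genes need the STAT5 factors.

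NF-kB is a family of dimeric transcription factors that drive genes of inflammation, immunity and cell survival. In resting cells IkB proteins hold the dimers in the cytoplasm. Signals from many receptors activate the IKK kinase complex, which marks IkB for destruction and frees the dimers to enter the nucleus. Nfkbia and Tnfaip3 are textbook targets of NF-kB itself and close a negative feedback loop. In lymphoid cells the dimers that hold Rel and Rela support survival and proliferation. Messenger RNA levels do not read how much NF-kB is in the nucleus.

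Promoter sequences are shown for Nfkbia and Nfkbib, whose probe sets had the largest IL-3 ratios, on opposite sides of 0. For Nfkbia this holds on the U74C probe set, which can cross-hybridise, while its U74A ratios were smaller (-0.22 and -0.19). Without IL-3 the Nfkbib signal was just too dim to be read, which fixes its side. Both are the 250 bases before the annotated start, from RefSeq on GRCm38.p6, minus strand, written 5′ to 3′, with matches to the 10-base kB consensus of NF-kB (searched on both strands) in capitals. The Nfkbia gene lies at chr12:55489409-55492647 and its window at chr12:55492648-55492897. The Nfkbib gene lies at chr7:28758251-28766644 and its window at chr7:28766645-28766894, which overlaps the annotated Sirt2 gene.
Nfkbia: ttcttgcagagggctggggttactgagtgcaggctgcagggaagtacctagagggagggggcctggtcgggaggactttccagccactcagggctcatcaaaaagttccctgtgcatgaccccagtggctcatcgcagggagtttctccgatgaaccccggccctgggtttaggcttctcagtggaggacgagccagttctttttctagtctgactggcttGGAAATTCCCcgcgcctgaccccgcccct
Nfkbib: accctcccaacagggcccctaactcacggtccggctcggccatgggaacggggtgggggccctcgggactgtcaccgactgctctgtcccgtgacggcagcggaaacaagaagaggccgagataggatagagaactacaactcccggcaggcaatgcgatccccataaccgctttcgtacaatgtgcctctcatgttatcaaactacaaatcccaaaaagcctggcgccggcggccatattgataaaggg

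The Nfkbia window held 1 match, which began 29 bases before the start, and the Nfkbib window held 0. Windows were found for 8 member genes, 11 windows in all, and 7 windows of 5 genes held a match. Among all 32851 windows of this length in the table, 7.25% did. The 7 windows include 3 of Nfkb2 that lie inside that gene. The matches in windows outside the gene are shown for the other members, on the gene's strand, since they include 2 genes whose signals stayed near the bottom of the scale.
Nfkbie: GGGGGATTCC
Rel: GGGAAATCCC
Rel: GGAAATCCCC
Tnfaip3: GGGACACCCC
Tnfaip3: GGAAATCCCC

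The 2 matches of Rel overlap, shifted by a single base. The STAT motif TTCNNNGAA (its own reverse complement) was found in 1 of the 11 windows, of Nfkb2 and inside that gene, against 7.02% of all windows. A match is a stretch of letters and no measure of binding.

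The values are MAS5 signals, a linear brightness per probe set that is not comparable between probe sets. A floor of 119.8 was used. At this value 14553 of the 36701 probe sets that are not controls pass on their brightest array, the number that the design text gives for its noise filter. Lower signals were set to the floor before division, and a comparison took in a probe set if either signal was at the floor or above. A ratio with 1 raised signal is a lower bound and is written "at least". Of the 16 member probe sets 6 reached the floor on some array, 5 of them on all 5 arrays of their design. The other 10 never did, and their low signals are given as values with no fold. Member counts are given beside the percentage of all measured probe sets past the same fold.

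The arrays of 1 design correlated between 0.902 and 0.964 on log2 signals, and Stat5a and Stat5b read below control cells wherever Stat5 siRNA was used: the U74B probe set of Stat5b stood at 33.2% of control at 30 min and 71.3% at 2 h, and the brighter Stat5a probe set at 50.6% and 53.6%. Both Stat5a probe sets are of a kind that can cross-hybridise. That Stat5b probe set read 499 at 30 min and 177 at 2 h in control cells, and 166 and 126 with Stat5 siRNA. The IL-3 receptor subunit gene Csf2rb had signals between 5443 and 8657. Of 16 pro-B and B lineage markers with a probe set 3 reached the floor (Ptprc, Cd79b and Tcf3), while Cd79a, Pax5, Ebf1, Igll1 and Vpreb1 did not, although Ba/F3 is generally described as a pro-B line. Pairs of probe sets of 1 gene gave the spread of a single log2 ratio, as an SD, between 0.21 and 0.26 on U74A, 0.20 and 0.33 on U74B and 0.35 and 0.41 on U74C. This spread is between probes on the same arrays and not between cultures. Probe sets that can cross-hybridise were left out of the pairs, and both member probe sets on U74C are of that kind.

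**Figure D1:**
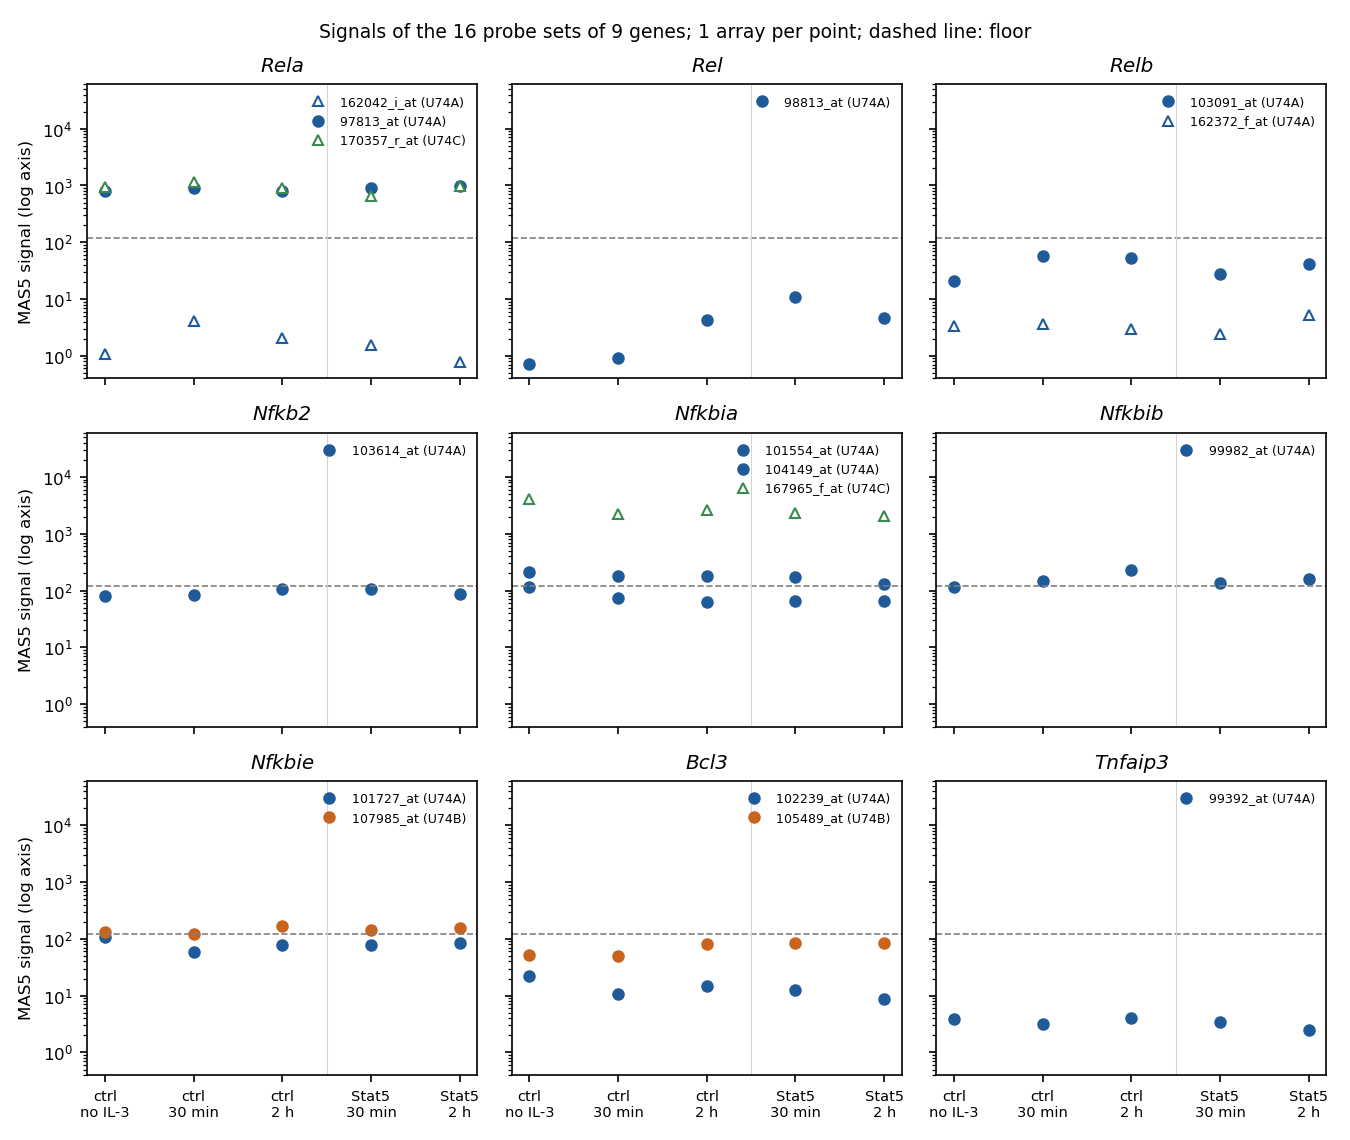
MAS5 signal (log axis) of the 16 member probe sets in the 5 conditions, 1 panel per gene and 1 array per point; colours mark the array design (blue U74A, orange U74B, green U74C), open triangles probe sets that can cross-hybridise, and the dashed line the floor of 119.8. Rela and Nfkbia have probe sets above the line in every condition, while Rel and Tnfaip3 stay below 11 and below 5.

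Rela, the subunit with the main transcription activation domain in most cells, was the steadiest member on U74A. Its probe set 97813_at read 809.65 without IL-3, 894 at 30 min and 801 at 2 h in control cells, and 921 and 979.7 at these times with Stat5 siRNA. The 2 Stat5 siRNA arrays were the highest and the whole span was 1.22-fold. Of the 4597 U74A probe sets that reached the floor, 72.0% spanned as much or more. The U74C probe set 170357_r_at, of a kind that can cross-hybridise, read 948, 1156 and 911 in control cells and 654 and 968 with Stat5 siRNA. Its lowest and highest arrays were thus the 2 at 30 min of IL-3, an order that 97813_at does not share. The remaining Rela probe set, 162042_i_at, stayed between 0.774 and 4.10.

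The other subunits were dim. Nfkb2, the precursor subunit of the alternative pathway, read 80.1 without IL-3, 84.7 at 30 min and 107 at 2 h in control cells, and 108 and 85.4 with Stat5 siRNA. All 5 signals lay under the floor. Relb, the partner of Nfkb2 in that pathway, read 20.6 without IL-3 on 103091_at, 58.2 and 53.9 after 30 min and 2 h in control cells, and 27.8 and 41.8 with Stat5 siRNA. All lay far under the floor, so no order is read and no fold is given. The second Relb probe set stayed between 2.41 and 5.17. Rel, the subunit c-Rel of lymphoid cells, read between 0.722 and 10.8.

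Nfkbia, the gene of the inhibitor IkB-alpha, had its highest signal without IL-3 on both probe sets that reached the floor. The brightest, 167965_f_at on U74C and of a kind that can cross-hybridise, read 4162 without IL-3, 2262 at 30 min and 2626 at 2 h in control cells, and 2277 and 2081 with Stat5 siRNA. All 4 IL-3 arrays were close to one another and below the unstimulated one. On U74A, 101554_at read 209 without IL-3, 179 and 184 in control cells, and 173 and 132 with Stat5 siRNA. The lowest was again Stat5 siRNA at 2 h. The remaining one, 104149_at, read 117, 73.1 and 62.4 in control cells and 66.7 and 65.3 with Stat5 siRNA, all under the floor, so its order is not read. The same unstimulated sample enters both orders, so they are no independent evidence.

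Nfkbib, the gene of IkB-beta, had its lowest signal without IL-3, where Nfkbia had its highest. Its probe set 99982_at read 115 without IL-3, just under the floor, 145 at 30 min and 227 at 2 h in control cells. With Stat5 siRNA it read 137 and 157. The control array at 2 h stood apart from the other 4. Of the 4597 U74A probe sets that reached the floor, 9.05% spanned as much as its span of at least 1.90-fold, with all signals under the floor raised to it.

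Nfkbie, the gene of IkB-epsilon, read 132 without IL-3 on the U74B probe set 107985_at, 123 at 30 min and 170.1 at 2 h in control cells, and 141 and 155 with Stat5 siRNA. Both 2 h arrays were higher than the rest. Its U74A probe set 101727_at, under the floor throughout, read 108 without IL-3, 59.1 and 77.3 in control cells and 78.5 and 86.0 with Stat5 siRNA. No order is read from signals under the floor.

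Bcl3, a nuclear IkB protein that works with homodimers of NF-kB subunits, read 52.1, 50.4 and 80.5 in control cells and 83.0 and 83.7 with Stat5 siRNA on U74B. All 5 lay under the floor. Its U74A probe set stayed between 8.70 and 22.4. Tnfaip3, which encodes the ubiquitin-editing enzyme A20, read between 2.46 and 4.01 and so showed no readable level in any condition. Whether these probe sets read their transcripts well was not tested. In bulk RNA, fewer cells with a transcript and less of it per cell cannot be told apart.

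After 30 min of IL-3 no measured member was called at 2-fold against the unstimulated cells. Of 6 measured member probe sets 0 were 2-fold or more higher, against 0.821% of all 13277 measured, and 0 lower, against 0.587%. Nfkbia on U74C had the largest difference, a log2 ratio of -0.88, and 2.43% of the 4198 measured U74C probe sets were as low or lower. It was the 1 of 6 past 1.5-fold downward, against 3.33% of all, and 0 of 6 were past 1.5-fold upward, against 3.59%. Quantile scaling moved it to 2.02-fold lower, which is past 2-fold, and scaling on the median to 1.63-fold lower. Nfkbia on U74A had -0.22, about 1 SD of its design's spread. Nfkbib had at least 0.28, Rela 0.14 on U74A and 0.29 on U74C, and Nfkbie -0.10. Here too Nfkbib reached the floor only with IL-3, which fixes its direction. The median of the 6 was 0.02, beside -0.01 over all probe sets.

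After 2 h the gap between Nfkbib and Nfkbia was wider. Of 6 measured member probe sets 0 were 2-fold higher, against 2.49% of all 13596, and 0 lower, against 2.04%. Nfkbib was at least 1.90-fold higher (log2 ratio at least 0.92), and 2.98% of the 4357 measured U74A probe sets were as high or higher. It was the 1 of 6 past 1.5-fold upward, against 8.69% of all. In this comparison Nfkbib reached the floor only with IL-3, which fixes its direction. Nfkbia on U74C had -0.66, the 1 of 6 past 1.5-fold downward, against 9.02%, and -0.43 with scaling on the median, which ends that call. Nfkbia on U74A had -0.19, Nfkbie 0.37, and Rela -0.02 on U74A and -0.06 on U74C. The Rela signs turn with other scalings, to 0.01 and 0.17. The median of the 6 was -0.04, beside -0.03 over all. Both IL-3 comparisons share the unstimulated arrays.

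Between 30 min and 2 h of IL-3, Nfkbib and Nfkbie were the members that differed most in control cells. Nfkbib had a log2 ratio of 0.65 and Nfkbie of 0.47, and the others lay between -0.34 and 0.21. None of the 6 was 2-fold higher or lower, against 1.97% and 1.73% of all 13433 probe sets, and Nfkbib was the 1 of 6 past 1.5-fold upward, against 7.38%. None was past it downward, against 8.05%. In Stat5 siRNA cells the same interval gave 0.20 for Nfkbib and 0.14 for Nfkbie. Nfkbia had -0.39 on U74A and -0.13 on U74C, and Rela 0.09 on U74A and 0.57 on U74C. Of the 6, 0 were past 2-fold, against 1.67% higher and 1.27% lower of all 13499, and 0 past 1.5-fold, against 7.01% and 6.50%. Scaling on the median puts Rela on U74C at 1.54-fold higher. The intervals of control and Stat5 siRNA cells share no array, and the difference between them was not tested.

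**Figure D2:**
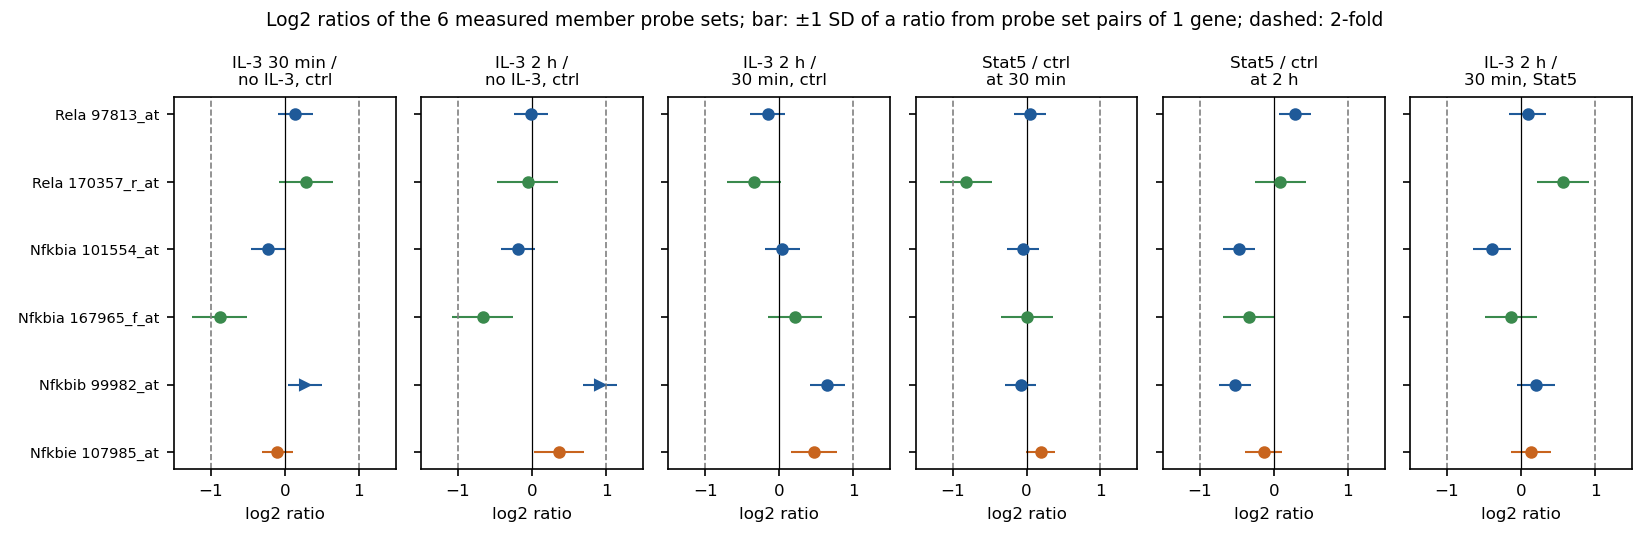
Log2 ratio of the 6 measured member probe sets in 6 comparisons, 1 panel each; the bar is ±1 SD of a single log2 ratio from pairs of probe sets of 1 gene on that design, right-pointing triangles are lower bounds, colours mark the array design as above and dashed lines 2-fold. The pairs leave out probe sets that can cross-hybridise, the kind of both U74C members. No point lies beyond a dashed line, and the nearest are Nfkbib at 2 h (at least 0.92) and Nfkbia on U74C at 30 min (-0.88).

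With Stat5 siRNA at 30 min of IL-3, 5 of the 6 measured member probe sets were within 0.20 of control cells on the log2 scale. Nfkbia had -0.05 on U74A and 0.01 on U74C, Nfkbib -0.08, Nfkbie 0.19 and Rela 0.04 on U74A. The exception was Rela on U74C, at -0.82, which goes against the U74A probe set of the same gene. Its difference is over 2 times the U74C spread of 0.35, but that spread leaves out probe sets that can cross-hybridise, as this one can. Of the 4097 measured U74C probe sets 2.29% were as low or lower. It was the 1 of 6 past 1.5-fold downward, against 2.93% of all 13216 probe sets, and 0 were past it upward, against 2.67%. Past 2-fold were 0 of 6 upward, against 0.416%, and 0 downward, against 0.446%. Scaling on the median turns the sign of Nfkbia on U74C to -0.08 and of Rela on U74A to -0.06. The median of the 6 was -0.02, beside 0.001 over all.

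At 2 h of IL-3 no member was called between Stat5 siRNA and control siRNA, and the lowest ratios were those of Nfkbib and Nfkbia. Nfkbib read 157 against 227, 69.3% of control, a log2 ratio of -0.53, and 2.91% of the 4296 measured U74A probe sets were as low or lower. Nfkbia had -0.48 on U74A (71.9% of control) and -0.34 on U74C (79.3%), while its probe set under the floor read 65.3 against 62.4. With the floor halved, which takes that probe set in, the gene value of Nfkbia was -0.20. Nfkbie had -0.13, inside its U74B spread of 0.25, and its probe set under the floor read 86.0 against 77.3. Its gene value was 0.01 with the floor halved. Rela was on the other side of 0, at 0.29 on U74A and 0.09 on U74C. The U74A spread was 0.22, and scaling on the median brought Nfkbib to -0.43 and Nfkbia on U74A to -0.37. None of the 6 was past 2-fold, against 0.631% higher and 0.564% lower of all 13308, or past 1.5-fold, against 4.09% and 3.69%. The median of the 6 was -0.23, beside 0.003 over all. The control array at 2 h also enters the IL-3 comparison, where it gave Nfkbib its high value, so both ratios of Nfkbib rest on the same signal of 227.

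**Figure D3:**
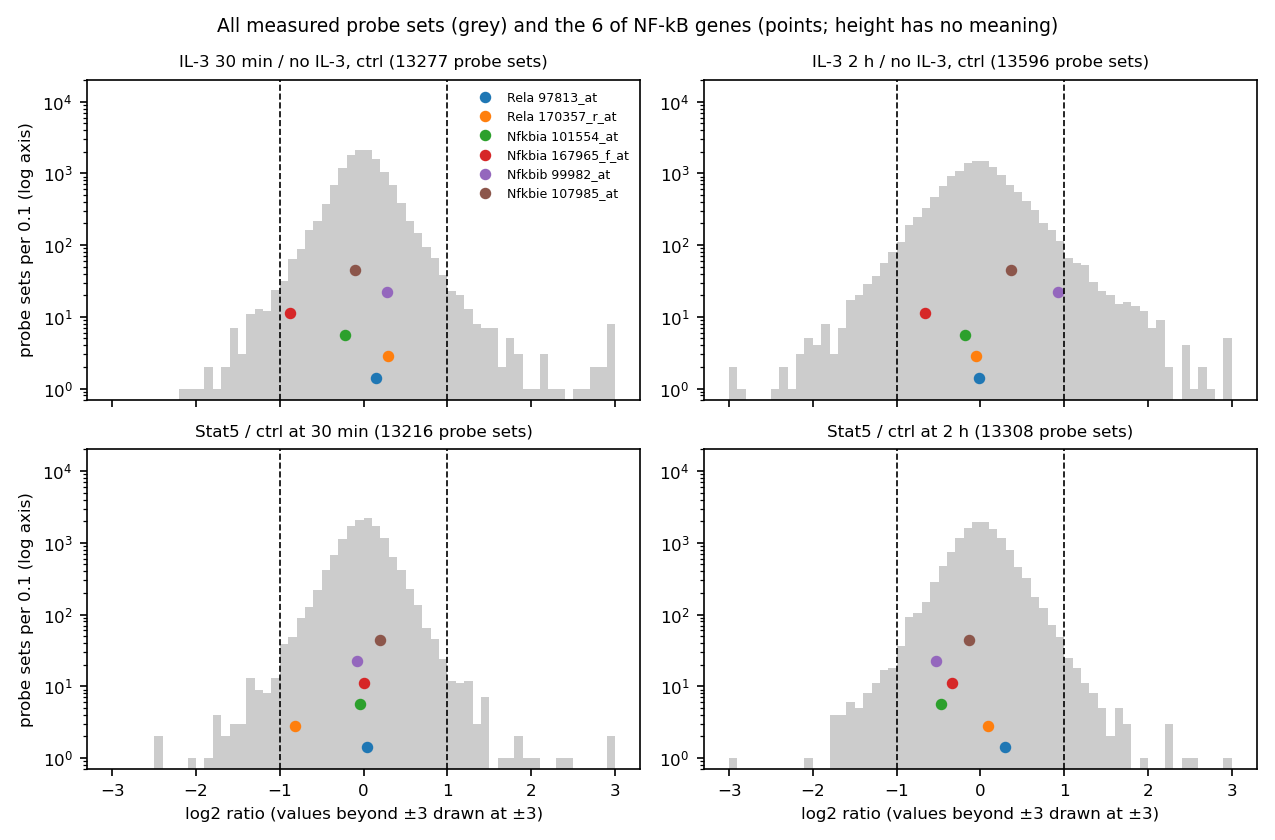
Number of measured probe sets per 0.1 of log2 ratio (grey, log axis; values beyond 3 drawn at 3) in 4 comparisons, with the 6 member probe sets as points whose height has no meaning; dashed lines mark 2-fold. All 6 members lie between the dashed lines in each panel, and at 2 h with Stat5 siRNA 4 of the 6, those of Nfkbia, Nfkbib and Nfkbie, lie below 0.

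Genes of an interferon response list, drawn up with earlier results of these data known, were higher in the same Stat5 siRNA arrays. Of 20 measured genes of that list 7 were 2-fold higher at 30 min and 0 lower, with a median log2 ratio of 0.66, and 8 of 23 and 0 at 2 h, with a median of 0.65. Over all genes 0.308% were higher and 0.382% lower at 30 min, and 0.504% and 0.430% at 2 h. At 30 min 6 of the 20 reached the floor only with Stat5 siRNA, which fixes their direction, and of the other 14 genes 5 were higher and 0 lower. At 2 h this held for 9 of the 23, and of the other 14 again 5 were higher and 0 lower. The summed signal of 9 erythroid and megakaryocyte markers was 6107 to 6710 in control cells and 8268 and 9154 with Stat5 siRNA. Of these markers 7 reached the floor, and Alas2 and Pf4 did not. Such a sum is weighted to bright probe sets. Itga2b read 2906.5 to 3364 in control cells and 4168 and 4166 with Stat5 siRNA, and Hba-a1 447 to 471, then 1102 and 1171. At 30 min Epor (161 in control cells, 147 with Stat5 siRNA) and Gp9 (150 and 104) went the other way. The part of the interferon genes and of these markers in the member values was not tested.

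Other genes of the pathway were read from lists of kinases, adaptors, receptors, nuclear partners and targets. These lists too were drawn up with earlier results of these data known. Their counts beside the shares over all genes are thus descriptions and no test. Among the IKK complex and upstream kinases, 1 of 11 measured genes was 2-fold higher after 30 min and 1 of 11 after 2 h, both times Map3k14, against 0.711% and 2.45% of all genes, and 0 were lower, against 0.343% and 1.63%. Map3k14 encodes NIK, the kinase that starts the alternative NF-kB pathway. On its U74C probe set it read 141 without IL-3, 324 at 30 min and 417 at 2 h in control cells, and 246 and 269 with Stat5 siRNA. The unstimulated array was the lowest of the 5. Its log2 ratio was 1.20 at 30 min and 1.56 at 2 h with IL-3, and -0.39 and -0.63 with Stat5 siRNA, where it was not past 2-fold. The median of the list was -0.06 and 0.01 with IL-3, beside -0.01 and -0.03 over all genes.

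Among adaptors and ubiquitin regulators upstream of IKK, 0 of 23 measured genes were past 2-fold at 30 min, and 1 of 22 was higher and 1 lower at 2 h. Over all genes 0.711% were higher and 0.343% lower at 30 min, and 2.45% and 1.63% at 2 h. Traf5, an adaptor of TNF receptor family members, read 130.1, 193 and 324 in control cells and 223 and 245 with Stat5 siRNA, and was 2.49-fold higher at 2 h. Irak3, a brake on Toll-like and IL-1 receptor signalling, read 1851, 1782 and 720.0 in control cells and 1761 and 945 with Stat5 siRNA, and was 2.57-fold lower. Both Irak3 signals at 2 h were thus below all 3 others. With Stat5 siRNA 0 of 23 genes were past 2-fold at 30 min, against 0.308% higher and 0.382% lower of all, and 0 of 22 at 2 h, against 0.504% and 0.430%.

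Of 6 measured receptors that signal to NF-kB, 0 were past 2-fold at 30 min of IL-3, against 0.711% higher and 0.343% lower of all genes. Tnfrsf13b, which encodes the BAFF and APRIL receptor TACI, was the 1 of 6 that was higher at 2 h, against 2.45%, with signals of 953, 1344 and 2090 in control cells. With Stat5 siRNA it read 918 and 642, and was the 1 of 6 that was 2-fold lower at 2 h, against 0.430% of all genes. At 30 min with Stat5 siRNA 0 of 6 were past 2-fold, against 0.308% higher and 0.382% lower of all genes. Both calls of Tnfrsf13b rest on the same control signal of 2090 at 2 h. None of the measured atypical IkB proteins and nuclear partners was past 2-fold in these 4 comparisons, 6 genes at 30 min and 8 at 2 h, where the shares over all genes lay between 0.308% and 2.45%.

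Of 54 genes listed as NF-kB targets 18 were measured at 30 min of IL-3, and 5 were 2-fold higher and 0 lower, against 0.711% and 0.343% of all genes. These were Junb (at least 7.65-fold, on probe sets that can cross-hybridise), Cd69 (at least 6.52-fold), Myc (at least 4.40-fold), Ier3 (4.32-fold) and Il6 (at least 2.28-fold). Junb, Myc and Ier3 are also immediate early genes that many growth signals induce. Il6, an inflammatory cytokine, read 54.3, 273 and 215 in control cells and 204 and 252 with Stat5 siRNA, so all 4 IL-3 arrays were above the unstimulated one. At 2 h 3 of 17 were higher, Bcl2l1 (at least 4.27-fold), Myc and Junb, and 1 was lower, Tap1 (-1.01), against 2.45% and 1.63% of all genes. Of these genes 5 at 30 min and 4 at 2 h reached the floor only with IL-3, which fixes their direction. Of the other 13 at each time, 1 was higher and 0 lower at 30 min, and 0 and 1 at 2 h. The value of Tap1, just past 2-fold, rests in part on a signal raised to the floor. The list's median was 0.09 at 30 min and -0.13 at 2 h, beside -0.01 and -0.03 over all genes, and -0.18 and -0.25 over those 13.

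With Stat5 siRNA 2 of 19 measured target genes were higher and 0 lower at each time: Ccl5 and Irf1 at 30 min, Ccl5 and B2m at 2 h. Over all genes 0.308% were higher and 0.382% lower at 30 min, and 0.504% and 0.430% at 2 h. Of these 19 genes 1 at 30 min and 3 at 2 h reached the floor only with Stat5 siRNA, which fixes their direction. Ccl5 was among them at both times. Ccl5, a chemokine, read 42.8, 61.4 and 44.7 in control cells and 1659 and 1238 with Stat5 siRNA. Irf1, a transcription factor that interferon also induces, read 131, 183 and 43.8 in control cells and 470 and 34.0 with Stat5 siRNA, its highest signal being the latter's 30 min array. The list's median was 0.16 at 30 min and 0.30 at 2 h, beside 0.001 and 0.004 over all genes. Without the genes whose direction is fixed it was 0.12 over 18 genes and 0.17 over 16. Irf1, Tap1 and Psmb9 are on the interferon list too.

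**Figure D4:**
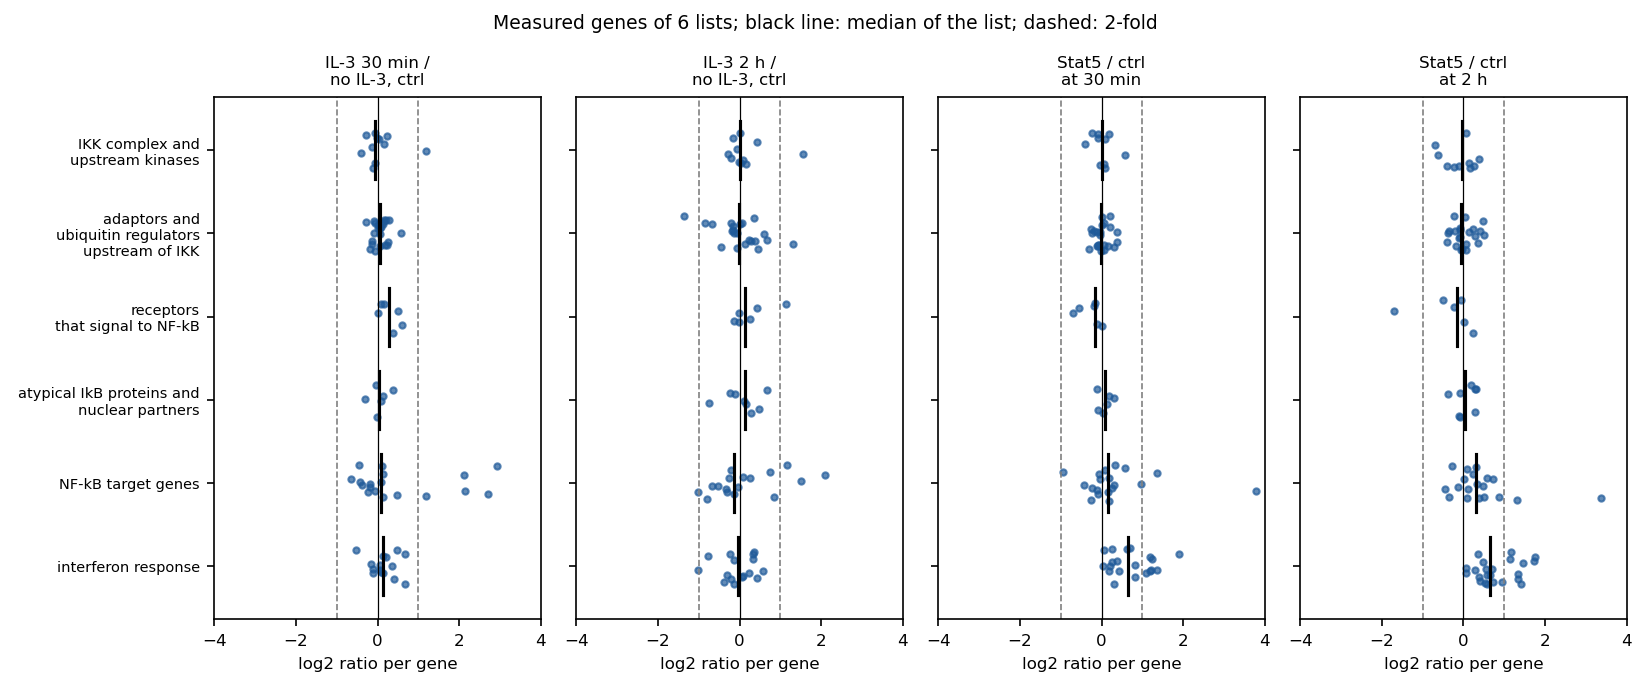
Log2 ratio per gene (points, vertical position jittered) of 6 gene lists in 4 comparisons; the black line is the list's median and dashed lines mark 2-fold. The kinase and adaptor lists centre near 0 in each panel, and the nuclear partner list has medians between 0.03 and 0.13. The interferon response list lies above 0 in both Stat5 siRNA panels. There 6 and 9 of its genes are above 0 because they reached the floor only with Stat5 siRNA.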

How the data were processed

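Expression was measured on 15 Affymetrix arrays, 5 conditions on each of U74A, U74B and U74C, and each array was assigned from its title. The deposited values are linear intensity values per probe set that the authors computed with MAS5, per the series' design text; software version, detection calls and scan dates are not given in the sources used here. The trimmed mean, leaving out 2% at each end, was 150.04 to 150.10 before every array was scaled to 150. Arrays of 1 design were compared with one another only. Changes were called by size alone, at 2-fold, without a test. Alternatives were a 1.5-fold call, median and quantile scaling, other floors and other choices of probe set per gene.

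The supplied platform annotation was the source of gene names: apart from controls, 29131 probe sets had 1 symbol, 724 had several and 6846 had none. Members and lists are described by probe set and by gene. A gene was given the median ratio of its measured probe sets, with those ending in _f_at, _r_at, _i_at or _x_at used only where the gene had no other. Named were all members, Stat5a, Stat5b and up to 4 called genes per list, comparison and direction. Il6 was named beyond this limit, as the lowest of the 5 targets called higher at 30 min of IL-3. No member probe set met the rule for naming genes of like pattern, which asked for a span of 2-fold. The members and lists were chosen with earlier results of these data known. Sequences and coordinates came from RefSeq tables on GRCm38.p6. The ratio and the 2-fold call were tested on simulated data, with changes only in probe sets well above the floor. Scaling, the choice of floor and the gene medians were not tested. Analysis used Python 3.11.15 with numpy 2.4.6 and pandas 2.3.3.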

Additional observations from a re-analysis of the deposited data

How the results depend on the processing

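Counts of member probe sets past 2-fold, 0 in each direction of all 6 comparisons, stayed at 0 in 102 of 108 pairs of a count and an alternative setting. Part of these could not move: doubling the floor or leaving out probe sets cannot raise a count from 0. Quantile scaling gave 1 member lower at 30 min of IL-3, Nfkbia on U74C. A 1.5-fold call gave 1 lower at 30 min and 1 higher and 1 lower at 2 h of IL-3, 1 higher from 30 min to 2 h in control cells, and 1 lower with Stat5 siRNA at 30 min. Of the gene values under other settings 220 moved by less than the spread between probe sets of 1 gene and 8 by more. Many of the 220 are the same value again, since the setting left the same probe set in use. The gene value of Nfkbia at 30 min was -0.22, and -0.88 with the floor doubled, where only the U74C probe set is measured. With all its probe sets in the median, a setting chosen after seeing the data, it was -0.55. At 2 h of IL-3 it went from -0.19 to -0.55 with the floor halved and -0.66 with it doubled, and with Stat5 siRNA at 2 h from -0.48 to -0.20 with the floor halved. Nfkbie went from -0.10 to -0.48 at 30 min and from 0.37 to -0.06 at 2 h with the floor halved, which lets in its second probe set. Rela with Stat5 siRNA at 30 min went from 0.04 to -0.39 with all its probe sets. Of 36 member ratios 32 kept their sign under the 3 scalings. The brightest probe set per gene applies to gene values and the 1.5-fold call to counts only. No paired analysis was possible because each condition has 1 array per design. Halving the floor took in Nfkb2 and Bcl3, at ratios up to 0.47. A floor set for each array design took in Nfkb2 too, at ratios between -0.08 and 0.08. It put Nfkbie at 0.12 at 2 h of IL-3. Low signals limit Nfkb2, Relb, Bcl3, Rel and Tnfaip3.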
